A study of Mus musculus with 8 samples.

Results

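The EGF-like ligands, their ErbB receptors and the genes of cumulus expansion were followed in primary mouse ovarian follicular cells under FOXL2 siRNA and estradiol. The 10 genes were Areg, Ereg, Btc and Hbegf among the ligands, Egfr, Erbb2 and Erbb3 among the receptors, and Has2, Tnfaip6 and Ptx3 among the genes of the cumulus matrix. They were found by Entrez ID, and all 10 were among the 24232 genes with an Entrez ID on the array. Cells were taken from ovaries of Swiss females aged 8 weeks, pooled from 5 mice per replicate, and were mostly granulosa cells of preantral follicles kept for 9 days in culture. All samples were grown with charcoal-treated serum and transfected with 12 pmol of siRNA and 200 ng of the plasmid pDsRed. The siRNA was a non-targeting pool (control siRNA) or a pool against Foxl2 (FOXL2 siRNA). Either 100 nM 17β-estradiol (E2) or its ethanol vehicle was then added 10 hr before lysis. Each siRNA was thus combined with each treatment, which gave 4 groups of 2 samples, and the replicates of a group came from different animals. Each sample was hybridised to its own one-colour array.

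In the ovary, luteinizing hormone acts on mural granulosa cells, which release amphiregulin, epiregulin and betacellulin (the products of Areg, Ereg and Btc). These ligands are made as membrane-bound precursors, are cut free by ADAM proteases and bind the EGF receptor on cumulus and granulosa cells. The cumulus cells then switch on Has2, Tnfaip6, Ptx3 and the prostaglandin synthase Ptgs2, and build the hyaluronan matrix that expands around the oocyte before ovulation. FOXL2 is a forkhead transcription factor of granulosa cells.

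Values are given as log2 scaled signal, the log2 of the array intensity after each array was brought to the same 75th percentile. They can be compared between arrays for 1 gene, but not between genes. A gene was tested when its median scaled signal over the 8 arrays was at least 10. Tests were two-sided and used limma over all 15645 genes that met this minimum, with Benjamini-Hochberg adjustment and a threshold of 0.05. Replicate arrays of a group correlated at 0.989 to 0.992 across genes, between 51.4 and 55.7% of probes per array were well above background, and all 8 arrays lay on 1 slide.

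A fall of the siRNA's target was not called at the level of the gene. Foxl2 read 13.46 and 13.02 with vehicle and 12.95 and 12.77 with E2 under control siRNA, and 13.41 and 13.40 with vehicle and 13.13 and 12.97 with E2 under FOXL2 siRNA. The arrays of both siRNAs overlapped, and FOXL2 siRNA minus control siRNA gave 0.18 averaged over treatments (SE 0.10, limma adjusted p = 0.334). Of its 2 probes, the bright one (A_55_P2037732) differed by 0.18 (limma adjusted p = 0.364) and the dim one (A_55_P2041668) was lower by -0.97 (limma adjusted p = 0.0200). On the dim probe the arrays of the siRNAs did not overlap, with 6.36 to 7.01 under control siRNA and 5.48 to 6.04 under FOXL2 siRNA. The groups are therefore called by their labels, and each direction for FOXL2 siRNA below rests on the arrays labelled so.

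Of the 10 genes, 8 were well above background on 8 of 8 arrays: Ereg, Btc, Hbegf, Egfr, Erbb2, Has2, Tnfaip6 and Ptx3. These same 8 genes passed the minimum and were tested. Areg was well above background on 1 array and Erbb3 on 0, and neither was tested. The defining granulosa markers Fshr, the receptor of follicle-stimulating hormone, and Amh were well above background on 0 of the 8 arrays, while 7 of the 10 granulosa markers were so on 8 of 8 arrays. Lhcgr, the receptor of luteinizing hormone, was well above background on 0 of the 8 arrays.

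Stretches of promoter are shown for the LH-responsive ligand Areg and for Btc and Egfr, which read lower under FOXL2 siRNA. The RefSeq table of promoters (build GRCm38.p6) matched 6 of the 10 genes: Areg, Btc, Egfr, Erbb2, Tnfaip6 and Ptx3. Each line gives the 250 bases before the gene's start, 5′ to 3′ on the gene's strand, at chr5:91139349-91139598 (plus strand) for Areg, chr5:91402995-91403244 (minus strand) for Btc and chr11:16751953-16752202 (plus strand) for Egfr. Capitals mark a match to a cAMP response element.
Areg: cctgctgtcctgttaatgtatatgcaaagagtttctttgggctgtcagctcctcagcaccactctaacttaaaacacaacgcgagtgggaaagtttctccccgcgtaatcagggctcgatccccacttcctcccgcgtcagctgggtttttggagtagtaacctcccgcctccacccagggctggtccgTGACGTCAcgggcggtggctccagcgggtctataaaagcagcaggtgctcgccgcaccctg
Btc: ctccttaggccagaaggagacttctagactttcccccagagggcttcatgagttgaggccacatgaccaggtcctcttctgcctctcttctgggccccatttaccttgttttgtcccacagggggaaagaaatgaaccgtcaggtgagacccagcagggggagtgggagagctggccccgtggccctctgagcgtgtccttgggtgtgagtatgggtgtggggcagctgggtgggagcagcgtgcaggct
Egfr: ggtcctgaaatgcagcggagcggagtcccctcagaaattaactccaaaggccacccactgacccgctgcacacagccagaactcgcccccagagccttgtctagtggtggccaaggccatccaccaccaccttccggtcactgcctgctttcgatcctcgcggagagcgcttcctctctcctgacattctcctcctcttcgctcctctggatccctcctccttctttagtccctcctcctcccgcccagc
Motifs were searched on both strands. The cAMP response element TGACGTCA, the letters bound by CREB downstream of luteinizing hormone receptors, was found in Areg alone of the 6 windows, 61 to 54 bases before the start. It occurs in 1.55% of all 32851 windows of this length. Of the forkhead words, GTAAACA is held by 3.17% of all windows, whereas ATAAACA is held by 4.16%, the word GTAAATA is held by 2.73% and the word ATAAATA by 5.17%. At least 1 of the 4 is in 13.6% of all windows, and in 0 of the 6 windows here. The full estrogen response element GGTCANNNTGACC was found in 0 of the 6 windows and in 0.0639% of all windows. None of the motifs searched contains another. GC content was 57.2% in the Areg window, 59.6% in the Btc window and 60.8% in the Egfr window, against a median of 52.4% over all windows.

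Ereg, Btc, Egfr and Has2 read lower where the label was FOXL2 siRNA when both treatments were averaged, whereas Hbegf, Erbb2, Tnfaip6 and Ptx3 were not called. This comparison gave 4 of the 8 tested genes as lower, beside 6.18% of all genes tested, and 0 as higher, beside 6.39% of all genes tested. For the same 4 genes, all 4 arrays labelled FOXL2 siRNA read below all 4 arrays labelled control siRNA, which was so for 10.7% of all genes tested. The median difference was -0.47 over the 8 genes and -0.003 over all genes tested. The comparison over both treatments is the mean of the comparisons with vehicle and with E2, and is not independent of them.

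**Figure D1:**
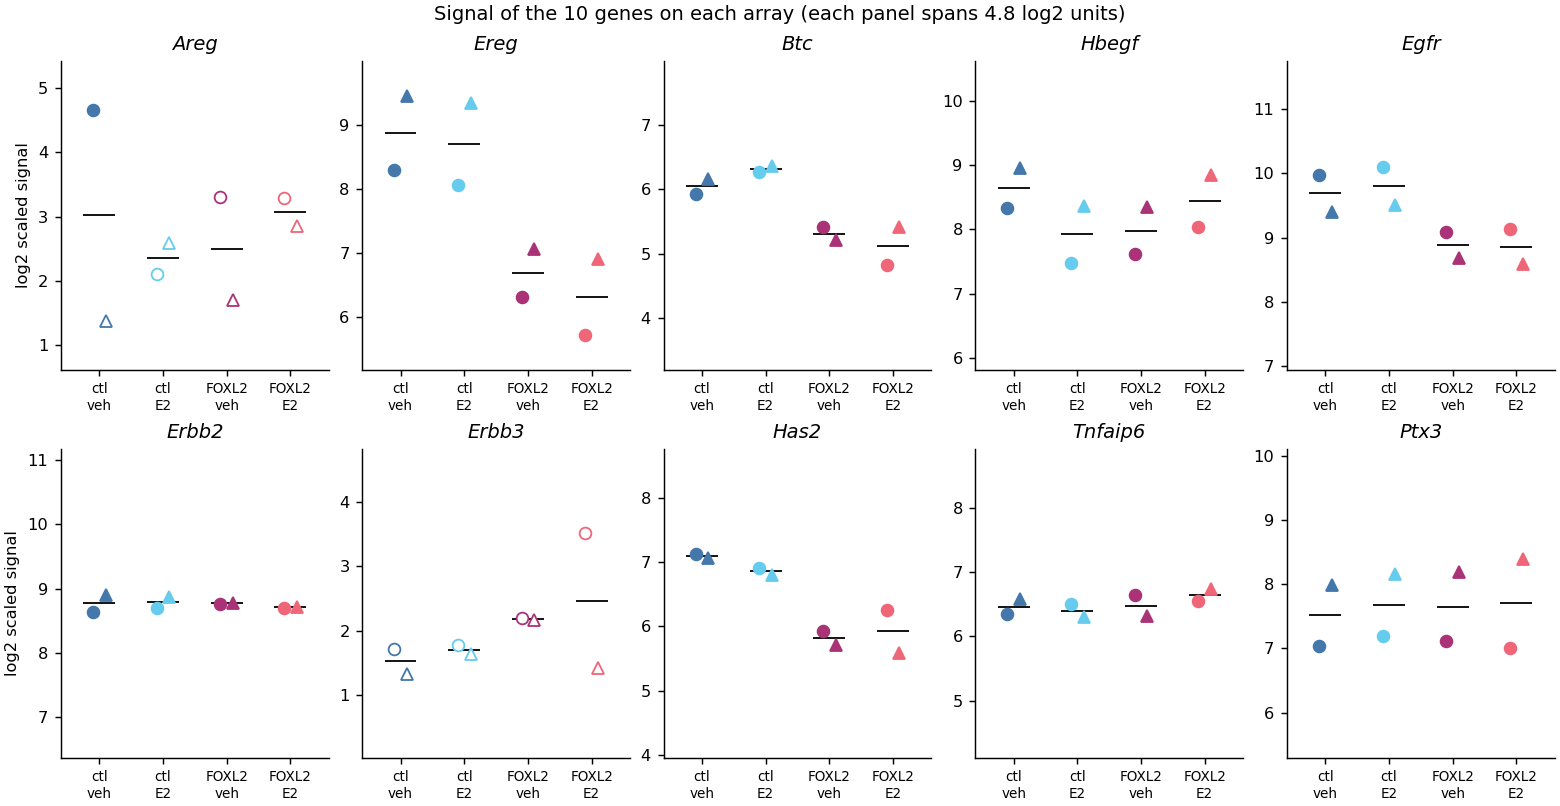
Log2 scaled signal (y axis) of the 10 genes in the 4 groups (x axis: ctl, control siRNA; FOXL2, FOXL2 siRNA; veh, vehicle), with 1 point per array, circles for replicate 1, triangles for replicate 2, filled points for arrays well above background and a line at the group mean. The 4 FOXL2 siRNA arrays lie below the 4 control siRNA arrays for Ereg, Btc, Egfr and Has2, and the Areg and Erbb3 points are open apart from 1 Areg array.

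Ereg encodes epiregulin, a soluble ligand of EGFR and ErbB4, and had the largest difference among the 8 tested genes. Ereg (Entrez 13874) read 8.30 and 9.45 with vehicle and 8.05 and 9.34 with E2 under control siRNA, and 6.31 and 7.06 with vehicle and 5.73 and 6.91 with E2 under FOXL2 siRNA. All arrays labelled FOXL2 siRNA were thus below the lowest control array, although replicates of a group lay 0.75 to 1.29 apart. Averaged over the treatments the difference came to -2.28 (SE 0.41, 95% interval -3.23 to -1.33, limma adjusted p = 0.0102), which is 20.6% of the control level. It was -2.19 with vehicle (limma adjusted p = 0.0707) and -2.38 with E2 (limma adjusted p = 0.0676), neither of them called. With normexp background correction the Ereg difference over both treatments was -1.72, still called. Under control siRNA the group means were 8.87 ± 0.81 with vehicle and 8.70 ± 0.91 with E2, and under FOXL2 siRNA they were 6.69 ± 0.53 and 6.32 ± 0.84 (SD, n = 2 each). In this order, neighbouring groups overlapped within a siRNA and were apart between siRNAs.

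Btc encodes betacellulin, a ligand of EGFR and ErbB4. Btc (Entrez 12223) read 5.93 and 6.17 with vehicle and 6.28 and 6.36 with E2 under control siRNA, and 5.42 and 5.21 with vehicle and 4.83 and 5.41 with E2 under FOXL2 siRNA. The arrays of the siRNAs did not overlap, with 5.42 as the highest FOXL2 siRNA value and 5.93 as the lowest control value. Over both treatments Btc was lower by -0.97 (SE 0.17, 95% interval -1.36 to -0.57, limma adjusted p = 0.0098), at 51.2% of the control level. With E2 the difference was -1.20 (SE 0.24, limma adjusted p = 0.0354), and with vehicle it was -0.74 (limma adjusted p = 0.135) and was not called. The call with E2 was kept when a vehicle array of control siRNA was left out and lost without any 1 of the other 6 arrays, where the difference was -1.49 to -0.91 and the adjusted p 0.0557 to 0.183, and it was also lost without any filter on dim genes (adjusted p = 0.0955). With normexp background correction the difference over both treatments was -0.44, still called.

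Hbegf encodes the heparin-binding ligand of EGFR and ErbB4, and was not called between the siRNAs. Hbegf (Entrez 15200) read 8.33 and 8.96 with vehicle and 7.48 and 8.37 with E2 under control siRNA, and 7.62 and 8.34 with vehicle and 8.03 and 8.85 with E2 under FOXL2 siRNA. All 4 groups overlapped. The difference with FOXL2 siRNA was -0.66 with vehicle (95% interval -1.60 to 0.28, limma adjusted p = 0.442), 0.52 with E2 (95% interval -0.42 to 1.46, limma adjusted p = 0.610) and -0.07 over both (limma adjusted p = 0.912). With a replicate block in limma the differences with vehicle and with E2 were called (adjusted p = 0.0010 and 0.0061).

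Areg encodes amphiregulin, which like epiregulin is cut from a membrane precursor and binds EGFR. Areg (Entrez 11839) read 4.66 and 1.38 with vehicle and 2.11 and 2.59 with E2 under control siRNA, and 3.31 and 1.70 with vehicle and 3.30 and 2.86 with E2 under FOXL2 siRNA. The reading of 4.66 was the single one well above background, so that the gene has only a bound in the other 3 groups. A bound is the group mean after readings under the lowest well-above-background signal of their array were raised to that signal. The group that held the reading of 4.66 had a mean of 3.02, or 3.27 computed in the same way as the bounds. The bounds of the others were 2.50, 2.79 and 3.08, and no direction can be read from these values.

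Egfr encodes the receptor that binds all 4 ligands. Egfr (Entrez 13649, mean of 3 probes) read 9.98 and 9.40 with vehicle and 10.10 and 9.51 with E2 under control siRNA, and 9.08 and 8.68 with vehicle and 9.13 and 8.59 with E2 under FOXL2 siRNA. The arrays of the siRNAs did not overlap, with 9.13 as the highest FOXL2 siRNA value and 9.40 as the lowest control value. Averaged over the treatments the difference came to -0.88 (SE 0.20, 95% interval -1.35 to -0.41, limma adjusted p = 0.0290), at 54.5% of the control level, and it was not called with vehicle (-0.81, limma adjusted p = 0.166) or with E2 (-0.95, limma adjusted p = 0.133). All 3 probes read lower with FOXL2 siRNA, by -0.97 (A_52_P106259, limma adjusted p = 0.0281), -0.79 (A_55_P1956863, limma adjusted p = 0.0824) and -0.47 (A_55_P1956862, limma adjusted p = 0.118), and the arrays of the last probe overlapped. The Egfr call depended on single arrays and was lost without control siRNA with vehicle replicate 1 (-0.73, adjusted p = 0.0682), control siRNA with E2 replicate 1 (-0.73, adjusted p = 0.0928), FOXL2 siRNA with vehicle replicate 2 (-0.78, adjusted p = 0.100) or FOXL2 siRNA with E2 replicate 2 (-0.74, adjusted p = 0.0863), and also with no filter (adjusted p = 0.0570) or no intensity trend (adjusted p = 0.0663).

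Erbb2 encodes the partner receptor that binds no ligand of its own and pairs with the other ErbB receptors. Erbb2 (Entrez 13866) stood within 8.63 and 8.91 on the 8 arrays. Averaged over the treatments it differed by -0.04 (95% interval -0.24 to 0.17, limma adjusted p = 0.829), an interval narrower than that of any other of the 8 genes. Erbb3 (Entrez 13867), whose product binds neuregulins and has little kinase activity, read 1.32 to 3.52 and was well above background on 0 of the 8 arrays.

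Has2 encodes the hyaluronan synthase that makes the backbone of the cumulus matrix. Has2 (Entrez 15117) read 7.12 and 7.07 with vehicle and 6.90 and 6.80 with E2 under control siRNA, and 5.92 and 5.70 with vehicle and 6.26 and 5.59 with E2 under FOXL2 siRNA. The highest FOXL2 siRNA array, at 6.26, stood below the lowest control array, at 6.80. Over both treatments Has2 was lower by -1.10 (SE 0.16, 95% interval -1.49 to -0.72, limma adjusted p = 0.0047), at 46.5% of the control level. With vehicle it was lower by -1.28 (SE 0.23, limma adjusted p = 0.0188), and with E2 the difference was -0.93 (limma adjusted p = 0.0742). The call with vehicle was lost when any 1 of the 4 arrays with vehicle was left out, where the difference was -1.39 to -1.17 and the adjusted p 0.0635 to 0.118, and the E2 comparison was called without FOXL2 siRNA with E2 replicate 1 (-1.26, adjusted p = 0.0352). With normexp the difference over both treatments was -0.56, still called.

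Tnfaip6 and Ptx3 encode TSG-6 and pentraxin 3, of which the first transfers heavy chains of inter-alpha-trypsin inhibitor to hyaluronan and the second helps to cross-link them. Tnfaip6 (Entrez 21930, mean of 3 probes) read 6.29 to 6.58 in the control siRNA arrays and 6.31 to 6.73 in the FOXL2 siRNA arrays. Averaged over the treatments it differed by 0.13 (95% interval -0.18 to 0.44, limma adjusted p = 0.605), and its 3 probes gave 0.04, 0.14 and 0.13. Ptx3 (Entrez 19288) read 7.04 and 7.98 with vehicle and 7.19 and 8.16 with E2 under control siRNA, and 7.11 and 8.19 with vehicle and 7.01 and 8.39 with E2 under FOXL2 siRNA. Replicates of a group thus lay further apart than any 2 group means, and the difference of 0.08 had an interval of -0.87 to 1.02 (limma adjusted p = 0.933). Replicate 2 was the higher array in each of the 4 groups, by 0.94 to 1.38. Within a replicate number the Ptx3 difference was 0.07 and 0.20 with vehicle and -0.18 and 0.22 with E2. With a replicate block in limma the difference over both treatments was not called either (adjusted p = 0.590).

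**Figure D2:**
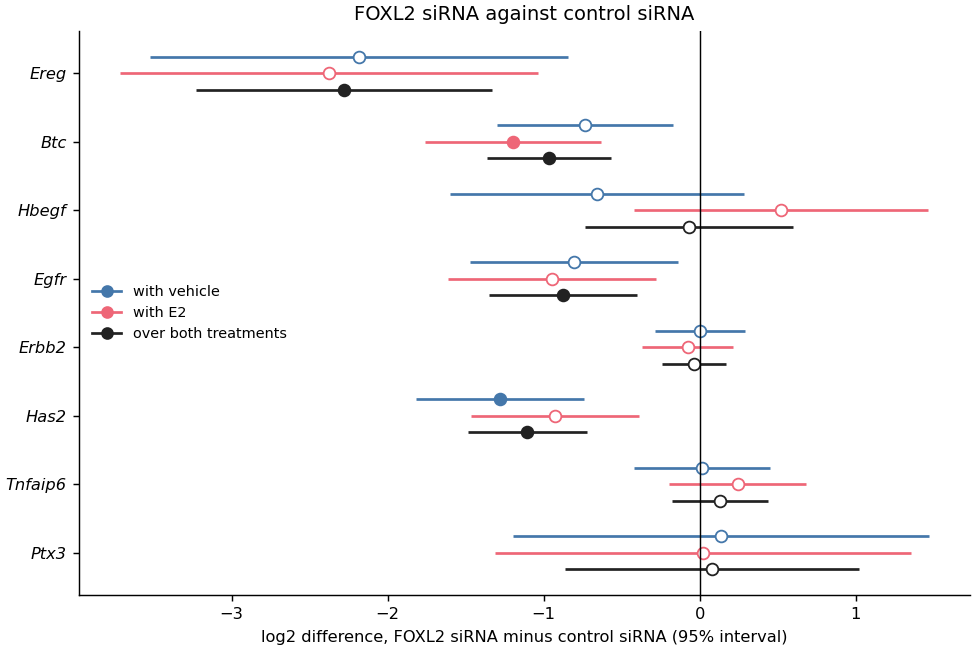
Log2 difference between FOXL2 siRNA and control siRNA arrays (x axis) for the 8 tested genes (y axis), with vehicle, with E2 and over both treatments; lines are 95% intervals and filled points have a limma adjusted p under the threshold of 0.05. Over both treatments the points of Ereg, Has2, Btc and Egfr lie at -2.28, -1.10, -0.97 and -0.88, and those of the other 4 genes between -0.07 and 0.13.

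Taken by treatment, 1 of the 8 tested genes was called lower with vehicle (Has2), beside 2.93% of all genes tested, and 0 higher, beside 3.6%. With E2 1 of the 8 was called lower (Btc), beside 2.13% of all genes tested, and 0 higher, beside 2.25%. A rule without a test, which asks for a log2 difference of at least 1 exceeding both SDs summed and multiplied by 2, took the same genes: Has2 with vehicle, beside 1.44% of all genes tested as lower, and Btc with E2, beside 1.05%. A call with one treatment and not with the other does not show that the siRNA differences differ between treatments. That difference was tested directly and is the same quantity as the difference of E2 effects given below.

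Some genes listed as markers of other cell types were higher in the arrays labelled FOXL2 siRNA. Of the 6 markers of surface epithelium and mesothelium, 5 were tested and 3 were called higher over both treatments: Msln by 2.07, Upk3b by 1.47 and Wt1 by 1.02, the last of which granulosa cells also express. The log2 summed signal of the 6 markers was 12.89 to 13.14 on the control siRNA arrays and 14.03 to 14.32 on the FOXL2 siRNA arrays, and 0 of the 6 markers were below background on every array. Of the 5 genes listed as theca markers 3 were tested and 1, Cyp11a1, was called higher (0.89). Which cells of the culture made its RNA was not tested. Cyp17a1 (0.62, limma adjusted p = 0.110) and Ptch1 (0.02, limma adjusted p = 0.971) were not called. The log2 summed signal of the 4 theca markers present was 14.22 to 14.43 on control siRNA and 15.14 to 15.22 on FOXL2 siRNA arrays. The log2 summed signal of the 10 granulosa markers was also higher, at 17.07 to 17.15 on control siRNA and 17.26 to 17.42 on FOXL2 siRNA arrays. These sums weigh bright genes most, and the median difference of the 8 granulosa markers tested was 0.04. Of the 8 granulosa markers tested, Fst, which encodes follistatin, was lower (-2.02) and Inhbb was higher (0.80). None of the other granulosa markers tested was called. Their differences ran from -0.75 (Cyp19a1, limma adjusted p = 0.082) to 0.41 (Amhr2, limma adjusted p = 0.062). The call of Inhbb was lost with no intensity trend (limma adjusted p = 0.0511) and without control siRNA with E2 replicate 1, FOXL2 siRNA with vehicle replicate 2 or FOXL2 siRNA with E2 replicate 2 (adjusted p up to 0.0692). In the limma fit 0 of the 8 tested markers of oocytes, macrophages and endothelium were called, and 2 of them had an unadjusted p under 0.05. The part of these markers in the differences of Ereg, Btc, Egfr and Has2 was not tested, and in RNA from whole cultures fewer cells of a type and less RNA per cell cannot be told apart.

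The response to E2 was compared next, on the same 8 arrays, so that these comparisons share arrays with those of the siRNAs. With control siRNA, 0 of the 8 tested genes were called, beside 0.0192% of all genes tested, and with FOXL2 siRNA 0 of 8, beside 0.0128%. In the limma fit 0 of the 8 genes had an unadjusted p under 0.05 in either comparison. Among all 15645 genes tested, 716 had such a p with control siRNA and 478 with FOXL2 siRNA. The rule on SDs took 0 of the 8 genes as well. The differences between E2 and vehicle ran from -0.72 (Hbegf) to 0.27 (Btc) with control siRNA and from -0.37 (Ereg) to 0.46 (Hbegf) with FOXL2 siRNA. These limits moved with single arrays. The lowest difference with control siRNA was -0.29 without control siRNA with E2 replicate 1 and -1.16 without its replicate 2. With FOXL2 siRNA the lowest was -0.96 without FOXL2 siRNA with E2 replicate 2, and the highest was 0.87 without its replicate 1. The intervals were wide for Ereg (-1.51 to 1.17 with control siRNA) and Ptx3 (-1.17 to 1.50), and narrow for Erbb2 (-0.27 to 0.31). For Has2 the E2 difference was -0.24 (95% interval -0.78 to 0.30) with control siRNA and 0.11 (95% interval -0.43 to 0.65) with FOXL2 siRNA.

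The E2 effect with FOXL2 siRNA minus that with control siRNA was called for 0 of the 8 genes, beside 0.243% of all genes tested. In the limma fit 0 of the 8 had an unadjusted p under 0.05, beside 767 of all 15645 genes tested. Hbegf had the largest such difference among the 8 genes. Its E2 difference was -0.72 with control siRNA (limma adjusted p = 1.00) and 0.46 with FOXL2 siRNA (limma adjusted p = 1.00), and the difference between them was 1.18 (SE 0.57, 95% interval -0.15 to 2.51, unadjusted p = 0.0753 and adjusted p = 1.00 in limma). Under control siRNA its mean was 8.64 ± 0.45 with vehicle and 7.92 ± 0.63 with E2 (SD, n = 2 each), and under FOXL2 siRNA it was 7.98 ± 0.51 and 8.44 ± 0.58, with overlapping arrays in both pairs. With a replicate block in limma, Hbegf was called for E2 with control siRNA (adjusted p = 0.0073) and for the difference of E2 effects (adjusted p = 0.0014). The labels do not say that a replicate number marks a shared batch. The difference of E2 effects was 0.35 for Has2, -0.46 for Btc and -0.19 for Ereg.

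**Figure D3:**
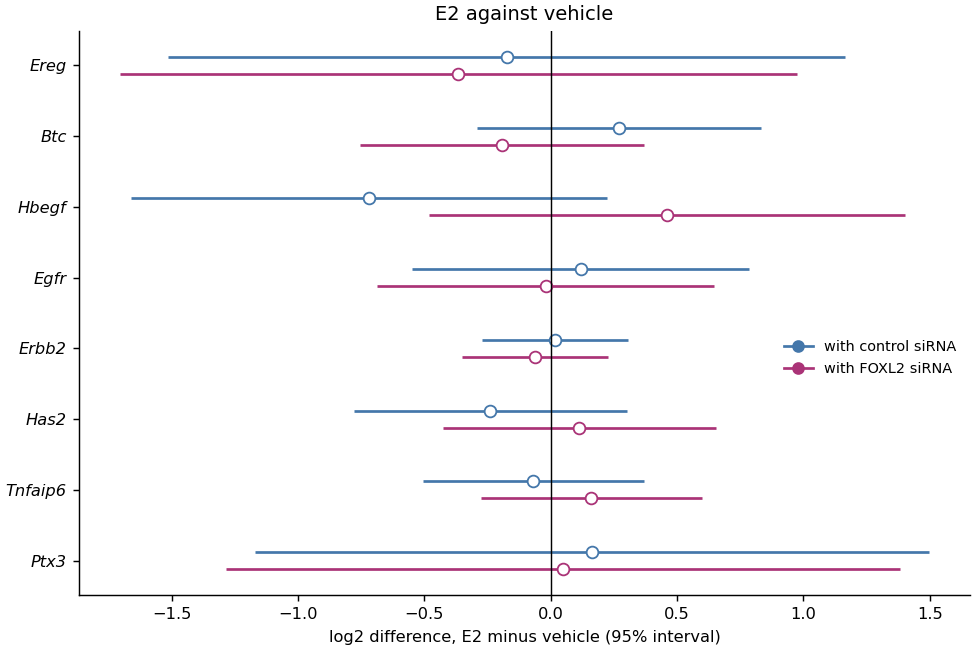
Log2 difference between E2 and vehicle arrays (x axis) for the 8 tested genes (y axis), with control siRNA and with FOXL2 siRNA; lines are 95% intervals and open points have a limma adjusted p above the threshold of 0.05. All 16 intervals include 0, and the points of Hbegf lie on opposite sides of it, at -0.72 and 0.46.

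The wider pathway was read from 5 lists of genes, over both treatments, against the same shares of all genes tested (6.18% lower and 6.39% higher) and the same median of -0.003. Of 8 other EGF family ligands and ErbB receptors, 5 were tested, 2 were higher and 0 lower, with a median of 0.66. Nrg1, a neuregulin that binds ErbB3 and ErbB4, was higher by 0.96 (SE 0.10, limma adjusted p = 0.0011), by 1.16 with vehicle and by 0.76 with E2, each called. Nrg2 was higher by 0.80 (limma adjusted p = 0.0283), a call kept in 3 of the 8 leave-one-array-out fits (adjusted p up to 0.100). It was also lost with no filter (adjusted p = 0.0665). Tgfa (-0.16), Egf (0.66) and Erbb4 (0.24) were not called, and Epgn was well above background on 0 of the 8 arrays.

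Of 11 genes that shed or mature EGF-like ligands, 11 were tested, 3 were higher and 0 lower, with a median of 0.14. Timp3, an inhibitor of ADAM17, was higher by 1.79 (SE 0.13, limma adjusted p = 0.0003), by 2.15 with vehicle and by 1.42 with E2. Adam10, a protease that sheds betacellulin, was higher by 0.53 (SE 0.09, limma adjusted p = 0.0098). Rhbdf2, which carries ADAM17 to the cell surface, was higher by 0.51 (SE 0.06, limma adjusted p = 0.0024). Adam17 itself differed by 0.15 (limma adjusted p = 0.587).

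Of 17 ErbB adaptors and feedback regulators, 16 were tested and 0 were called in the limma fit, with a median of 0.003 and 4 at an unadjusted p under 0.05. The largest value was that of Spry1, an inhibitor of receptor signalling, at 1.40 (SE 0.41, limma adjusted p = 0.0680), and Dusp6 and Errfi1, feedback genes of ErbB signalling, stood at -0.01 and -0.10. This count was 1 with normexp, 5 with a replicate block and up to 2 when 1 array was left out.

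Of 18 genes of the hyaluronan matrix and its remodelling, 10 were tested, 3 were higher and 1 lower, with a median of 0.23. Cemip, whose product breaks down hyaluronan, was higher by 1.44 (SE 0.18, limma adjusted p = 0.0022). Adamts1, the protease that cuts versican in the expanded matrix, was higher by 1.39 (SE 0.07, limma adjusted p = 0.0001), and Cd44, a hyaluronan receptor, by 0.79 (SE 0.14, limma adjusted p = 0.0089). The hyaluronidase Hyal1 was lower by -0.48 (limma adjusted p = 0.0384), a call kept in 1 of the 8 leave-one-array-out fits (adjusted p up to 0.122). It was also lost with normexp, no filter and no intensity trend (adjusted p up to 0.0782). The other hyaluronan synthases, Has1 and Has3, and Ambp were well above background on 0 of the 8 arrays, and versican (Vcan) differed by -0.17 (limma adjusted p = 0.447).

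Of 15 genes of the prostaglandin and LH pathway, 10 were tested, 5 were lower and 1 higher, with a median of -0.38. Ptger2, the prostaglandin E2 receptor of cumulus cells, was lower by -1.50 (SE 0.25, limma adjusted p = 0.0074). Ptgs2 was lower by -1.25 (SE 0.27, limma adjusted p = 0.0215), a call lost without FOXL2 siRNA with vehicle replicate 1, control siRNA with vehicle replicate 2 or control siRNA with E2 replicate 2 (adjusted p up to 0.0825) and kept in the other 5 such fits. The transcription factors Cebpb (-0.56, limma adjusted p = 0.0068), Crem (-0.49, limma adjusted p = 0.0079) and Runx1 (-0.31, limma adjusted p = 0.0420) were lower, and the call of Runx1 was kept in 1 of the 8 such fits (adjusted p up to 0.134). Ptges, which makes prostaglandin E2 from the product of Ptgs2, was higher by 0.44 (limma adjusted p = 0.0180), a call lost without control siRNA with E2 replicate 1 or FOXL2 siRNA with vehicle replicate 2 (adjusted p up to 0.0690). With no intensity trend in limma 3 of these 10 genes were called in place of 6, and the calls of Ptgs2 (adjusted p = 0.0553), Ptges (0.0506) and Runx1 (0.0655) were lost. That of Runx1 was also lost with normexp, with no filter and with the brightest probe (adjusted p up to 0.131).

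**Figure D4:**
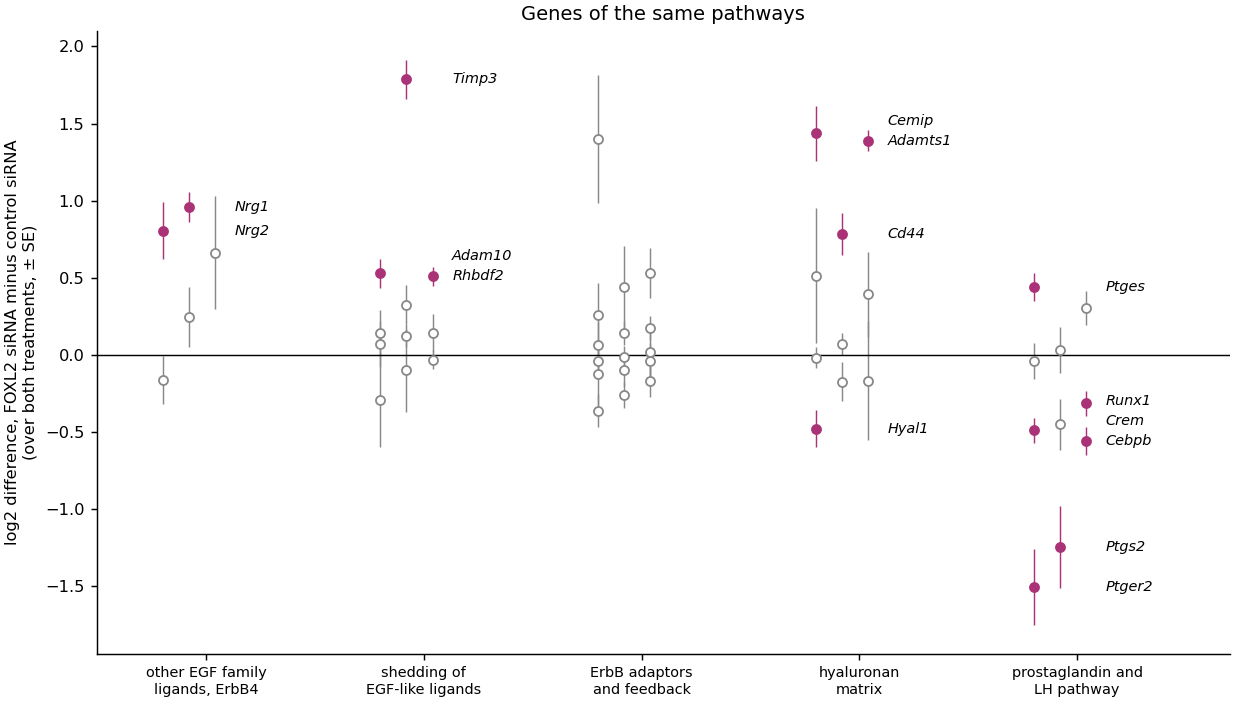
Log2 difference between FOXL2 siRNA and control siRNA arrays over both treatments (y axis, with SE) for the tested genes of 5 pathway lists (x axis); filled and named points have a limma adjusted p under the threshold of 0.05. Timp3 lies highest at 1.79 and Ptger2 lowest at -1.50, and the list of ErbB adaptors and feedback regulators has no filled point.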

How the data were processed

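Spot intensity values were deposited as Agilent Feature Extraction output, background-subtracted by the authors' software and not scaled between arrays. The authors' deposited table holds log2 values of the same arrays. Its rows were compared when they held an Entrez ID and all of their probes were kept here. After a constant shift per array of -0.22 to -0.19, between 98.7 and 98.9% of the rows compared equalled the values computed here within 0.001 on the log2 scale. Here control spots and 42 non-uniform probes were left out, the 55639 probes of an array were divided by their 75th percentile, and probes of an Entrez gene were averaged on the linear scale. No probe was saturated. Names came from RefSeq for 22349 of 24232 genes. The 4 group means were fitted with limma 3.58.1 (trend, R 4.3.3) over 8 arrays, leaving 4 residual degrees of freedom. The scaling, averaging and minimum of 10 follow the study's methods. Those methods also subtract a median for each replicate, over values that they do not spell out. That step was left out here, also from the rule on SDs, and median centring of each array was run as an alternative for the limma fit.

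The members and lists were chosen with earlier results of these data known. Named were all 10 members, Foxl2, list genes past the threshold (up to 8 per list) and, for 3 members, the 3 genes most alike in pattern. Other genes named without a call were chosen after their values were seen. Alternatives were normexp (offset 50), quantile normalization, median centring, no filter, the brightest probe, the authors' table, no intensity trend, a replicate block, the rule on SDs and leaving out each array. Scripts were tested on simulated data. Tables and plots used Python 3.11.15, pandas 2.3.3, numpy 2.4.6 and matplotlib 3.10.9.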

Additional observations from a re-analysis of the deposited data

How the results depend on the processing

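The 4 lower genes over both treatments numbered 3 or 4 under every alternative run, and Ereg, Has2 and Btc were called in all 16. Fits that left out 1 array gave 3 to 4 called genes over both treatments, 0 to 1 with vehicle and 0 to 1 with E2. With no filter the count with E2 was 0. With a replicate block it was 5 with vehicle and 5 with E2 (Ereg, Btc, Egfr, Has2 and Hbegf), and 1, Hbegf, for E2 with control siRNA and 1, Hbegf, for the difference of E2 effects (adjusted p = 0.0073 and 0.0014). The block stays an alternative, since the labels do not say that a replicate number marks a shared batch and there are only 2 numbers. Deviations of same-numbered arrays correlated at 0.33 to 0.45 over the 6 pairs of groups, and the number is also the row of the slide. Within a number, the Ereg difference was -1.98 and -2.39 with vehicle and -2.32 and -2.43 with E2, and the Hbegf E2 difference was -0.85 and -0.59 with control siRNA and 0.41 and 0.51 with FOXL2 siRNA. Small uncalled differences over both treatments changed sign. Ptx3 gave -0.0052 with normexp, and leaving out 1 array gave -0.27 to 0.42 for Ptx3, -0.29 to 0.15 for Hbegf and -0.11 to 0.0302 for Erbb2. The causes were not tested.

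Among all genes, the replicate block raised the calls from 1022 to 2928 with vehicle, 686 to 2330 with E2, 1967 to 4327 over both, 3 to 182 and 2 to 96 for E2, and 38 to 332 for the difference. No intensity trend gave 631, 379, 1520, 1, 1 and 15, no filter 736, 460, 1559, 1, 0 and 9, and normexp gave 7 for E2 with control siRNA. The brightest probe gave 1 for E2 with FOXL2 siRNA. With 2 arrays per group, the number of arrays limits precision, and signal near background limits what can be said of Areg and Erbb3.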

Other observations

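For the 3 called genes with the largest differences over both treatments, the genes outside the list with the most similar values over the 8 arrays were found among 13204 genes. The 8 arrays share the slide and the group structure, so that a difference between the siRNAs raises each correlation, and no test was made. For Ereg these were Klhl21 (Pearson r = 0.992), Sdhaf1 (0.99) and Tsr1 (0.989). Klhl21 and Sdhaf1 were lower under FOXL2 siRNA, by -0.66 and -0.46 on the log2 scale, against -2.28 for Ereg, and Tsr1 differed by -0.31 (limma adjusted p = 0.0577). For Has2 they were Slco3a1 (0.994), Rnf125 (0.992) and Dffa (0.991), with differences of -0.95, -1.65 and -0.60. For Btc they were Smoc1 (0.987), Smug1 (0.98) and Tmem70 (0.979), with differences of -0.59, -0.44 and -0.35.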
